A study of Mus musculus with 4 samples.

Results

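The genes described here are 10 members of the TNF receptor superfamily that T cells carry: Tnfrsf4, Tnfrsf9, Tnfrsf18, Tnfrsf8 and Cd27, the TNF receptors Tnfrsf1a and Tnfrsf1b, the death-domain receptors Fas and Tnfrsf25, and the decoy-like receptor Tnfrsf26. They were chosen by name, not by a measured value, though earlier results of these data were known. Every array probe that carries 1 of these 10 names was taken, which gave 15 probes of 56605 on the array and 10 genes of 24813 with a value. Tnfrsf9 and both TNF receptors had 2 probes each, Fas had 3 and the other 6 members had 1. All 15 probes were well above local background on all 4 arrays, so every member has a measured level in every sample and none was lost to a filter.

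TNF receptor superfamily proteins sit in the cell membrane and bind trimeric ligands of the TNF family on other cells. Receptors such as OX40 (Tnfrsf4), 4-1BB (Tnfrsf9), GITR (Tnfrsf18), CD27 and CD30 (Tnfrsf8) recruit TRAF adaptors and activate NF-κB, and act as costimulators beside the T cell receptor and CD28. Receptors with a death domain, such as Fas, can instead recruit FADD and caspase-8. OX40, 4-1BB and GITR are known to be induced on T cells by activation and to be carried by regulatory T (Treg) cells.

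Naive T cells were sorted from spleen and lymph nodes as CD4+ CD25low CD44low CD62L-high Foxp3- cells, and iTreg cells were the same cells after 3 h of culture on plate-bound anti-CD3 at 2 μg/ml and anti-CD28 at 0.5 μg/ml, with blocking antibodies to IFN-γ and IL-4, IL-2 at 10 ng/ml and TGF-β1 at 0.2 or 0.5 ng/ml. Which TGF-β1 dose an array had is not given in the sources used here. The design had 4 groups with 1 array in each, naive T and iTreg at 3 h of either genotype, and all mice were on C57BL/6J. Values over the 4 arrays are given below in the order naive T of WT, naive T of Nr4a-TKO, iTreg of WT and iTreg of Nr4a-TKO. Nr4a-TKO combines floxed alleles of Nr4a1 and Nr4a2 with Nr4a3-/-, and the floxed mice were young adults of both sexes, and the Cre driver and whether several mice were pooled are not given in the sources used here. Nr4a-TKO naive T cells were taken from irradiated Rag2-/- recipients of marrow in which WT cells carried Ly5.1 and Nr4a-TKO cells carried Ly5.2, the Nr4a-TKO marrow carrying a Foxp3 hCD2-hCD52 knock-in, while WT naive T cells (Ly5.2) came from recipients of WT marrow alone. The kind of chimera and the genotype therefore cannot be told apart in these arrays. The comparisons ask which receptor genes move within 3 h of stimulation and whether the 3 Nr4a factors bear on it.

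The 4 arrays lay on 1 slide with 1 scan, between 64.9% and 67.6% of probes were well above background on each, and no spot was saturated. With 1 array per group there is no spread between replicates and no p-value, and a difference is given as a log2 value with its spot error, which is the scanner software's own error of the 2 spots compared and does not cover mice or cultures. From probes printed on several spots, the SD of such a log2 difference was 0.18. The probes of the targeted genes did not follow the labels throughout. Nr4a1 read 0.48 higher on the array labelled Nr4a-TKO iTreg at 3 h than on that of WT, both Nr4a2 probes read 1.38 and 1.37 higher, and the 3 Nr4a3 probes read 0.19, -1.46 and -1.85. In naive T the values of Nr4a-TKO minus WT were 1.33 for Nr4a1, 0.19 and 0.76 for Nr4a2, and 0.02, -0.39 and 0.08 for Nr4a3. Whether these probes lie inside the deleted parts was not determined, a probe outside them checks nothing, and "Nr4a-TKO" below means the array so labelled. In whole-cell RNA, fewer cells that express a gene and less RNA per cell cannot be told apart.

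In WT cells the costimulatory receptors Tnfrsf9, Tnfrsf4 and Tnfrsf18 were between 5.10-fold and 15.9-fold higher in iTreg at 3 h over naive T. Tnfrsf4 and Tnfrsf18 were also higher in Nr4a-TKO iTreg at 3 h, by 12.6-fold and 7.30-fold over Nr4a-TKO naive T. The 2 Tnfrsf9 probes were higher there by 2.6-fold and 4.81-fold, the first under 2-fold in some other ways of processing. Tnfrsf9 stood apart between the genotypes: at 3 h it read 8.19-fold and 12.0-fold lower in Nr4a-TKO than in WT by its 2 probes. Cd27 was 2.31-fold lower in Nr4a-TKO iTreg at 3 h, and no member probe was over 2-fold higher there than in WT.

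Where a gene had several probes, the probes read different stretches of its RNA and did not always give the same difference, so 30 bases of each such probe are shown for the 4 genes with more than 1 probe. Each line is read 5′ to 3′, and capitals mark a run of 16 bases that also occurs, on either strand, in a probe of another gene or in the promoter window of any gene, while a line with no capitals has no such run in the whole probe.
Tnfrsf9 probe A_55_P2082180, bases 1 to 30, mm9 chr4:150319101-150319160, plus strand: cgcgcacctcatccaagtctcttctaacgc
Tnfrsf9 probe A_55_P2831060, bases 5 to 34, mm9 chr4:150320145-150320204, plus strand: aaactagCCTTTCCATTTTTAAAagccagc
Tnfrsf1a probe A_51_P106047, bases 15 to 44, mm9 chr6:125311454-125311513, plus strand: acttcatGCCACCTGTCAGTGAGgtagtcc
Tnfrsf1a probe A_52_P192426, bases 1 to 30, mm9 chr6:125312376-125312435, plus strand: agcaatctttgtatcaattatatcacacta
Tnfrsf1b probe A_52_P228621, bases 31 to 60, mm9 chr4:144804304-144804363, minus strand: tgcttataaatgcTTTTTGTTGTTGTTTTg
Tnfrsf1b probe A_55_P2738892, bases 16 to 45, mm9 chr4:144833903-144833961, minus strand: tgtctccTGTAGCCCAGGCTGGCcttcagg
Fas probe A_52_P73385, bases 5 to 34, mm9 chr19:34383733-34383792, plus strand: agactctTTAAAATGAAAACACAatataga
Fas probe A_55_P2091676, bases 31 to 60, mm9 chr19:34402164-34402223, plus strand: cctctctatatggaAATGTATAATAGAAGA
Fas probe A_55_P2745482, bases 1 to 30, mm9 chr4:40555124-40555183, minus strand: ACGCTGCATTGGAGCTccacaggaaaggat
The Tnfrsf9 probes shared no run with other genes' probes in the first case and with 1 probe in the second. The first Tnfrsf1a probe shares a run with 1 promoter window, and the second with none. The first Tnfrsf1b probe is from transcript NM_011610, and the run shown is T-rich. Counted over the whole probe, runs of 16 bases were shared with 9 probes of other genes and 10 promoter windows. For the second, from the cDNA AK170464, the same count gave 4 probes of other genes and 9 promoter windows. The third Fas probe was designed on L15353, a Fas RNA that holds an ETn retrotransposable element, and lies on chromosome 4 of mm9, not at Fas on chromosome 19. The first Fas probe belongs to NM_001146708 and the second to NM_007987, both of them Fas transcripts.

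**Figure D1:**
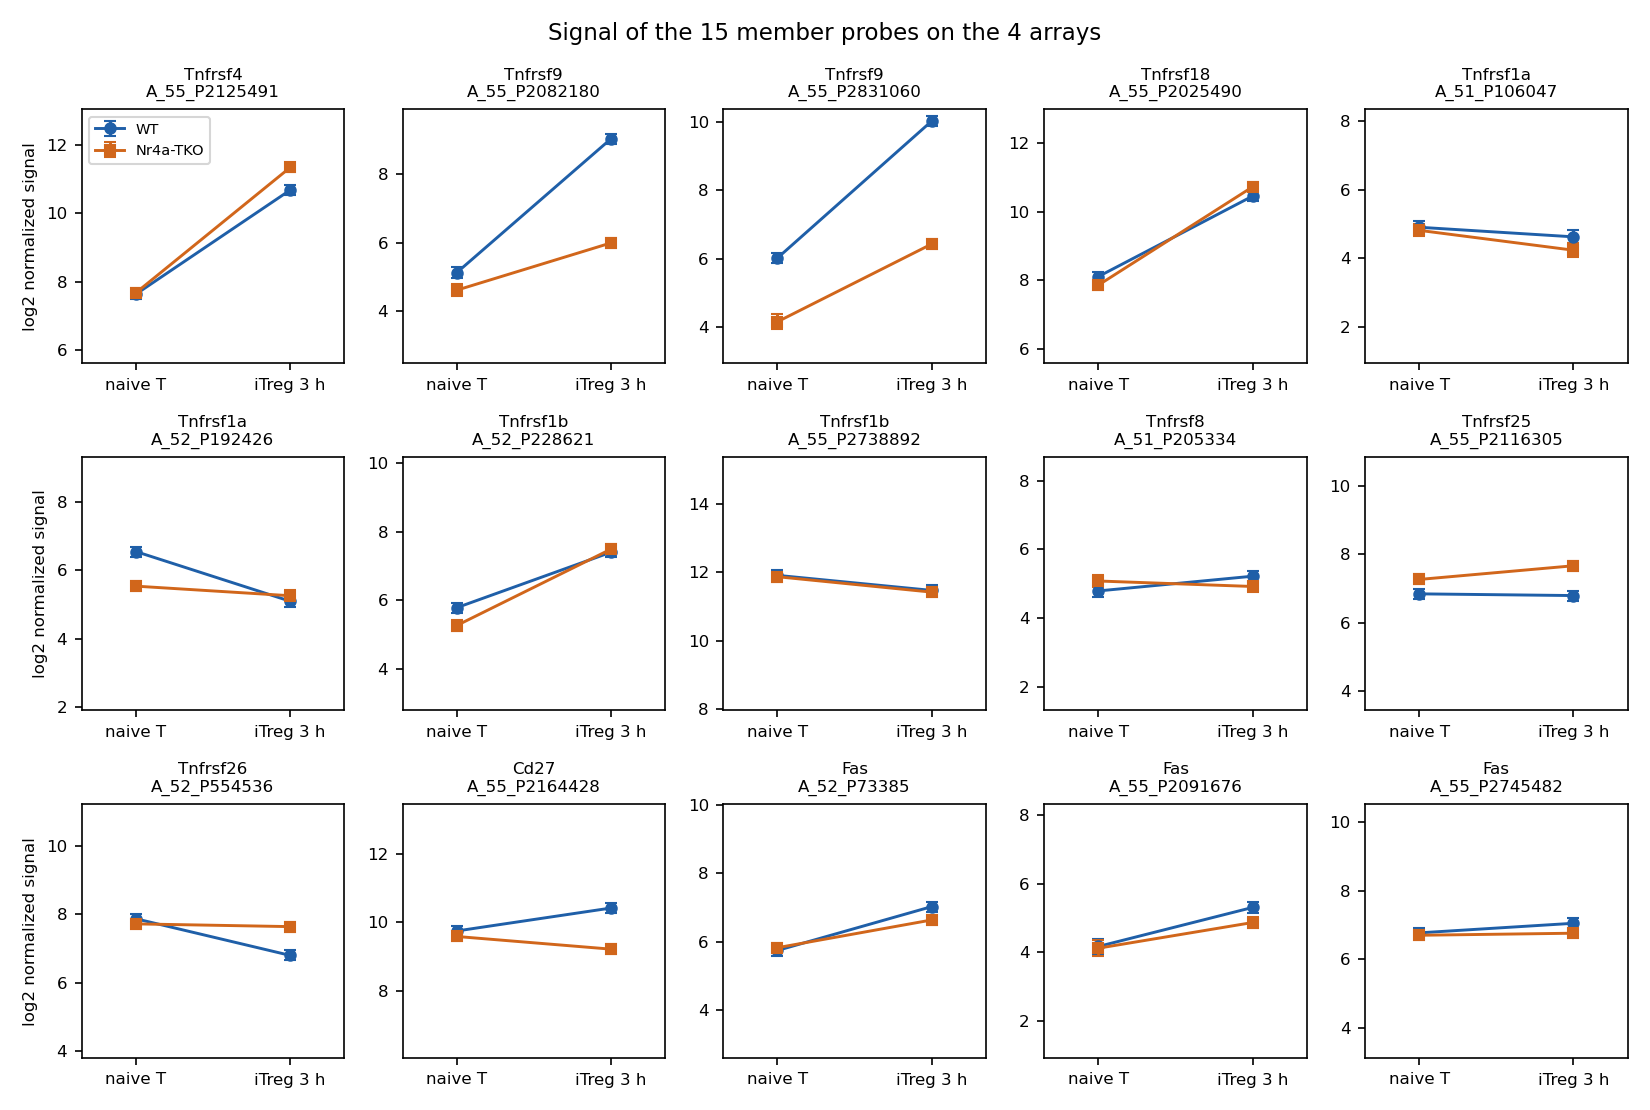
The log2 normalized signal (vertical axis) of each of the 15 member probes in naive T and iTreg at 3 h (horizontal axis) is drawn for WT (blue circles) and Nr4a-TKO (orange squares), 1 array per point, with bars of 1 spot error. All panels span the same number of log2 units around their own mean, so slopes can be compared between panels but levels cannot; the WT and Nr4a-TKO lines lie furthest apart for both Tnfrsf9 probes.

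Tnfrsf9 encodes 4-1BB, an inducible costimulator best known for sustaining activated T cells. Probe A_55_P2082180 had processed intensities of 27.8 in WT naive T, 17.8 in Nr4a-TKO naive T, 564 in WT iTreg at 3 h and 54.4 in Nr4a-TKO iTreg at 3 h, in arbitrary scanner units. Probe A_55_P2831060, which lies about 1 kb further along the plus strand, had 54.5, 11.9, 1132 and 78.2 in the same order. On both probes WT iTreg at 3 h was the highest of the 4 arrays by a wide margin and Nr4a-TKO naive T the lowest, and Nr4a-TKO iTreg at 3 h lay above WT naive T.

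Between naive T and 3 h of iTreg culture Tnfrsf9 changed by 3.91 ± 0.22 and 3.99 ± 0.21 log2 units (spot error) in WT by the 2 probes, and 1.38 ± 0.23 and 2.27 ± 0.26 in Nr4a-TKO. Both probes were thus higher at 3 h in both genotypes, though in Nr4a-TKO the first gave 0.90 with no background correction and 0.61 where a constant of 50 was added to all intensities before the log, a step that shrinks dim values. The Nr4a-TKO change minus the WT change was -2.53 ± 0.32 by the first probe and -1.73 ± 0.34 by the second. At 3 h Nr4a-TKO minus WT was -3.03 ± 0.21 and -3.59 ± 0.21, which placed the probes 50th and 17th from the lowest of 39791 probes compared.

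In naive T the 2 Tnfrsf9 probes gave unlike values for Nr4a-TKO minus WT, -0.50 ± 0.24 and -1.86 ± 0.27. The lower reading in Nr4a-TKO naive T was near the limit of the array: the log2 level of the second probe was 4.16 there, against 3.37 for the dimmest probe well above background. With the constant of 50 added, that second difference was -0.76. The difference at 3 h stayed between -3.30 and -2.33 for the first probe and between -3.78 and -3.00 for the second under all 7 ways of processing. Tnfrsf9 lies on chromosome 4, as does the targeted gene Nr4a3, and their probes are 102 Mb apart on mm9.

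Tnfrsf4 encodes OX40, which binds OX40L (Tnfsf4) and supports survival of activated CD4+ T cells. Its probe A_55_P2125491 had processed intensities of 188 in WT naive T, 188 in Nr4a-TKO naive T, 1992 in WT iTreg at 3 h and 3009 in Nr4a-TKO iTreg at 3 h. The naive arrays were level and both iTreg arrays were far above them. Its rise in log2 units was 3.04 ± 0.20 in WT and 3.66 ± 0.20 in Nr4a-TKO, the 119th highest of 39395 probes and the 46th highest of 40285. Nr4a-TKO minus WT was 0.66 ± 0.20 at 3 h and 0.04 ± 0.20 in naive T.

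Tnfrsf18 encodes GITR, a costimulator that Treg cells carry at a high level. Probe A_55_P2025490 had processed intensities of 252, 206, 1665 and 1925. As for Tnfrsf4, the iTreg arrays were both above the naive arrays. Its log2 change was 2.35 ± 0.20 in WT and 2.87 ± 0.20 in Nr4a-TKO, and Nr4a-TKO minus WT was -0.25 ± 0.20 in naive T and 0.27 ± 0.20 at 3 h. Tnfrsf4 and Tnfrsf18 are neighbours on GRCm38.p6, at chr4:156013595-156016613 and chr4:156026322-156028894, with 9708 bases between them. Of the 10 members 6 lie on chromosome 4, and Tnfrsf1b and Tnfrsf8 form another close pair there with 20261 bases between them.

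Cd27 encodes the receptor of CD70, which resting naive T cells already carry. Its probe A_55_P2164428 had processed intensities of 685 in WT naive T, 603 in Nr4a-TKO naive T, 1461 in WT iTreg at 3 h and 601 in Nr4a-TKO iTreg at 3 h. WT iTreg at 3 h was the single high array, while the other 3 lay close together. The change of Cd27 was 0.67 ± 0.20 log2 units in WT and -0.37 ± 0.20 in Nr4a-TKO, a difference between the changes of -1.04 ± 0.29. Nr4a-TKO minus WT was -0.17 ± 0.20 in naive T and -1.20 ± 0.20 at 3 h, and the latter ranged from -1.23 to -1.14 under the 7 ways of processing.

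Tnfrsf8 encodes CD30, a receptor of activated lymphocytes. Probe A_51_P205334 was dim, with processed intensities of 23.7, 30.5, 36.4 and 25.8. Its 4 log2 differences lay between -0.30 and 0.43, each within 2 spot errors of 0, so no difference was detectable at this signal.

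The TNF receptors differ in kind: Tnfrsf1a (TNFR1) has a death domain and is broadly expressed, whereas Tnfrsf1b (TNFR2) lacks one, recruits TRAF2 and is carried by activated T cells and Treg cells. Probe A_52_P228621 of Tnfrsf1b had processed intensities of 52.6, 32.7, 196 and 198. Both iTreg arrays were high, and alike in the 2 genotypes. By this probe the log2 change was 1.61 ± 0.21 in WT and 2.23 ± 0.22 in Nr4a-TKO. Nr4a-TKO minus WT was -0.52 ± 0.22 in naive T and 0.09 ± 0.20 at 3 h.

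The other Tnfrsf1b probe, A_55_P2738892, gave no such rise. Its processed intensities were 3153, 3050, 3024 and 2876 in the same order, and its log2 changes were -0.44 ± 0.20 in WT and -0.45 ± 0.20 in Nr4a-TKO. This probe starts 29599 bases from the first on mm9. As given above, both probes share runs of bases with probes of other genes, the first with 9 such probes and the second with 4. The part of the shared runs in either signal was not tested.

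Tnfrsf1a went the other way from Tnfrsf1b in WT by 1 of its 2 probes. Probe A_52_P192426 had processed intensities of 80.5 in WT naive T, 37.6 in Nr4a-TKO naive T, 27.5 in WT iTreg at 3 h and 31.0 in Nr4a-TKO iTreg at 3 h. WT naive T was the single high array. The log2 change was -1.45 ± 0.22 in WT and -0.28 ± 0.22 in Nr4a-TKO, and Nr4a-TKO minus WT was -1.02 ± 0.21 in naive T and 0.16 ± 0.23 at 3 h. Probe A_51_P106047 was dimmer, at 24.9, 22.5, 18.8 and 13.2, and its 4 log2 differences lay between -0.58 and -0.09. It did not show the high WT naive T array, so the naive difference of Tnfrsf1a rests on 1 probe, and with the constant of 50 added that probe gave -0.77 for the WT change and -0.58 for naive T. Among 5 markers of myeloid cells, which express Tnfrsf1a, Cd14 showed the same single high array, with log2 levels of 6.66 in WT naive T, 3.97 in Nr4a-TKO naive T, 3.77 in WT iTreg at 3 h, where it was not well above background, and 4.58 in Nr4a-TKO iTreg at 3 h. Its Nr4a-TKO minus WT in naive T was -2.69. The other myeloid markers did not show the high WT naive T array. Their values for Nr4a-TKO minus WT in naive T were 0.08 for Itgam, 0.12 for Csf1r, 0.25 for Itgax and, as a bound, -0.02 for Lyz2. Of the 5 markers 3 were well above background on all arrays. The log2 of the summed levels of all 5 was 15.20, 15.28, 15.09 and 15.08 in the same order. Itgam alone read 15.06, 15.14, 14.98 and 14.98, so the sum says little of the dimmer markers. In WT naive T Itgam was thus brighter than the T cell marker Cd3e, at 13.05, and Csf1r read 11.62. Whether the Itgam and Csf1r probes report myeloid cells in these samples was not tested. The part of such cells in the Tnfrsf1a difference was not tested.

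Fas, the receptor of Fas ligand and a trigger of apoptosis in activated T cells, was higher at 3 h by the probes of both of its transcripts. Probe A_52_P73385 had processed intensities of 46.7, 49.1, 139 and 97.9, and probe A_55_P2091676 had 12.9, 11.3, 35.7 and 22.4. On both probes the naive arrays were level, WT iTreg at 3 h was highest and Nr4a-TKO iTreg at 3 h lay between. In log2 units the change was 1.28 ± 0.21 and 1.14 ± 0.28 in WT, and 0.81 ± 0.21 and 0.75 ± 0.29 in Nr4a-TKO, which is under 2-fold. With the constant of 50 added the WT values were 0.80 and 0.40. Nr4a-TKO minus WT at 3 h was -0.39 ± 0.21 and -0.43 ± 0.23, within 2 spot errors. The third probe, A_55_P2745482, which lies outside the Fas locus, gave a log2 change of 0.28 ± 0.21 in WT and 0.06 ± 0.21 in Nr4a-TKO.

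Tnfrsf25 encodes DR3, the death-domain receptor of TL1A (Tnfsf15), which acts as a costimulator of T cells. Probe A_55_P2116305 had processed intensities of 113, 149, 125 and 227. Nr4a-TKO was above WT at both stages, by 0.42 ± 0.21 in naive T and 0.87 ± 0.21 at 3 h on the log2 scale, and neither reached 2-fold. Tnfrsf26, a decoy-like receptor of the mouse, had 222, 201, 122 and 225 in the same order with probe A_52_P554536. WT iTreg at 3 h was the single low array. The log2 change was -1.07 ± 0.21 in WT and -0.08 ± 0.20 in Nr4a-TKO, and Nr4a-TKO minus WT at 3 h was 0.84 ± 0.21. Median scaling in place of quantile normalization gave -0.84 for the WT change, under 2-fold.

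**Figure D2:**
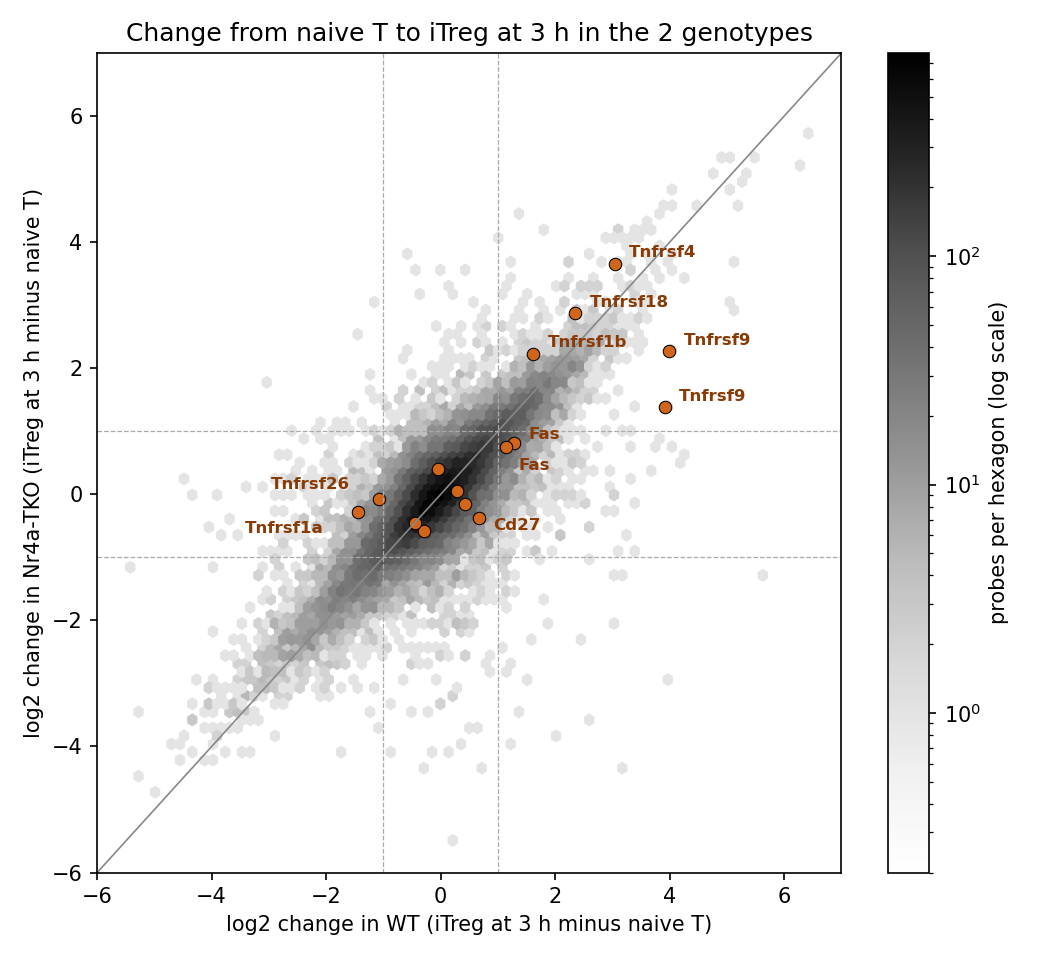
The log2 difference of iTreg at 3 h minus naive T in WT (horizontal axis) is set against that in Nr4a-TKO (vertical axis) for every probe compared in both genotypes (grey hexagons, darker for more probes) and the 15 member probes (orange), with dashed lines at 2-fold and a diagonal of equal change. Member probes more than 2-fold away in either genotype and Cd27 are named; both Tnfrsf9 probes lie far to the right of the diagonal, at 3.91 and 3.99 in WT, while Tnfrsf4, Tnfrsf18 and 1 Tnfrsf1b probe lie above it.

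Counted over the 15 member probes, 7 were more than 2-fold higher in WT iTreg at 3 h over WT naive T, against 9.23% of all probes compared, and 2 were more than 2-fold lower, against 8.47%. The 7 were both Tnfrsf9 probes, Tnfrsf4, Tnfrsf18, 1 probe of Tnfrsf1b and 2 of Fas. In Nr4a-TKO 5 were higher, against 8.19% of all probes, and 0 were lower, against 7.92%. The member median of the log2 change was 0.67 in WT and 0.40 in Nr4a-TKO, beside -0.02 and 0.00 over all probes. Probes of 1 gene share their RNA and are not independent, so these counts describe 10 genes.

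Between the genotypes far fewer features moved. In naive T, 0 of the 15 member probes were more than 2-fold higher in Nr4a-TKO, against 1.83% of all probes, and 2 were lower, against 1.67%, namely 1 probe each of Tnfrsf9 and Tnfrsf1a. At 3 h, 0 were higher, against 1.64%, and 3 were lower, against 1.89%, namely both Tnfrsf9 probes and Cd27. The member median of Nr4a-TKO minus WT was -0.09 in naive T and -0.29 at 3 h, beside -0.01 and 0.00 over all probes. Of the 15 probes, 9 lay within 2 spot errors of 0 at 3 h, 3 were lower by more than that and 3 were higher by more than that, the last being Tnfrsf4, Tnfrsf25 and Tnfrsf26.

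**Figure D3:**
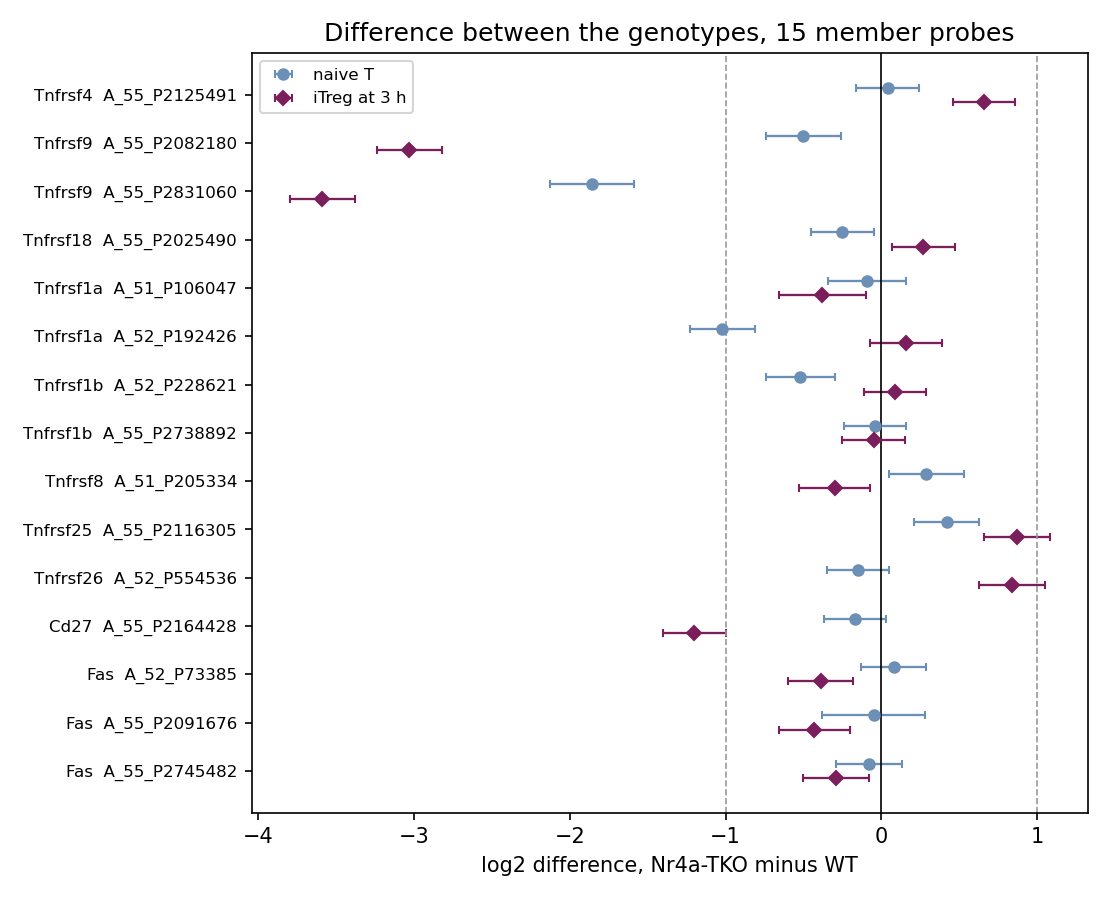
The log2 difference of Nr4a-TKO minus WT (horizontal axis) is drawn for each of the 15 member probes in naive T (blue circles) and iTreg at 3 h (purple diamonds), with bars of 1 spot error and dashed lines at 2-fold. Past the lower dashed line at 3 h lie both Tnfrsf9 probes, at -3.03 and -3.59, and Cd27 at -1.20; no probe passes the upper dashed line.

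For each gene outside the 10 members, the brightest of its probes was taken. By the same rule, 3 of the 10 members were more than 2-fold higher in WT iTreg at 3 h over WT naive T, against 8.70% of all genes, and 2 were lower, against 9.12%. In Nr4a-TKO 3 members were higher, against 8.18%, and 0 lower, against 8.50%. In naive T, 0 members were higher in Nr4a-TKO, against 1.83% of genes, and 2 lower, against 1.64%. At 3 h, 0 were higher, against 1.75%, and 2 lower, against 1.86%. This rule takes the A_55_P2738892 probe for Tnfrsf1b and the A_55_P2745482 probe for Fas, neither of which passed 2-fold in any comparison, and counts a gene with several probes once.

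Of the 9 ligands of these receptors, 6 could be compared between the stages. Tnf was higher by 2.86 on the log2 scale in WT and 3.01 in Nr4a-TKO, and Lta, which encodes lymphotoxin alpha, by 2.16 and 3.25. These were the 2 ligands past 2-fold in WT, where 8.70% of all genes were higher and 9.12% lower. In Nr4a-TKO 4 were past it, all of them higher, against 8.18% of all genes. Among them were Tnfsf8, the CD30 ligand, at 2.10 and Tnfsf9, the 4-1BB ligand, at 1.15, against 0.85 and 0.25 in WT. Tnfsf9 was dim, and its change in Nr4a-TKO was 0.78 with no background correction and 0.45 with the constant of 50.

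At 3 h, 3 of 5 comparable ligands were more than 2-fold higher in Nr4a-TKO than in WT, against 1.75% of all genes. They were Tnfsf8 by 1.61, Lta by 1.13 and Tnfsf9 by 1.05. None was more than 2-fold lower, against 1.86% of all genes. The log2 levels of Tnfsf8 were 8.89 in WT naive T, 9.24 in Nr4a-TKO naive T, 9.74 in WT iTreg at 3 h and 11.35 in Nr4a-TKO iTreg at 3 h, so that the last array was the highest. Those of Tnfsf9 were 4.25, 4.40, 4.50 and 5.55 in the same order, and its difference at 3 h was 0.71 with no background correction and 0.42 with the constant of 50, both under 2-fold. Tnf gave 0.60 and Fasl, the Fas ligand, -0.22. No ligand was past 2-fold between the genotypes in naive T, beside 1.83% of all genes higher and 1.64% lower. For Tnfsf4, Tnfsf15 and Cd70, the ligands of OX40, DR3 and CD27, no array gave a signal well above background.

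Of 18 other receptors of the superfamily, 15 could be compared between the stages, and their median log2 change was -0.01 in WT and 0.37 in Nr4a-TKO. In WT 3 were more than 2-fold higher, against 8.70% of all genes, and none lower, against 9.12%. They were Tnfrsf22, a decoy receptor for TRAIL, by 1.57, Tnfrsf10b, the death receptor for TRAIL, by 1.14, and Eda2r. The last was higher by at least 1.34, since it was not well above background in WT naive T. The mean of all Eda2r probes gave -0.42 in place of a rise, that of all Tnfrsf22 probes gave 0.82, and Tnfrsf10b gave 0.63 with the constant of 50. In Nr4a-TKO Tnfrsf10b changed by 1.05 and Tnfrsf13c, the BAFF receptor, by 1.03. With the constant of 50 these were 0.53 and 0.75, and the mean of all Tnfrsf13c probes gave 0.58. Between the genotypes, Tnfrsf14, the herpesvirus entry mediator that binds LIGHT and BTLA, was higher in Nr4a-TKO by 1.00 in naive T and by 1.19 at 3 h, with log2 levels of 7.32 and 8.32 in WT and Nr4a-TKO naive T. Its naive value only just passed 2-fold, and it lay between 0.82 and 0.97 with scaling to the 75th percentile, the constant of 50, no background correction, median scaling, the deposited table or the mean of all probes. Tnfrsf13c was higher by 1.05 at 3 h. That difference was under 2-fold, at 0.74, with the mean of all probes, 0.76 with the constant of 50 and 0.94 with no background correction. Ltbr, Tnfrsf17 and Edar were not well above background on any array.

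All 20 adaptors and signal proteins could be compared. In WT 4 were higher at 3 h, against 8.70% of all genes. They were Tnfaip3 (A20, an inhibitor of NF-κB signals) by 1.34, Traf1 by 1.26, Birc3 (an inhibitor of apoptosis that ubiquitinates RIPK1) by 1.13 and Traf4 by 1.06. The 3 lower ones, against 9.12% of all genes, were Traf5 by -2.13, Casp8 by -1.29 and Cyld, a deubiquitinase, by -1.13. In Nr4a-TKO the 6 higher ones were the same 4, at 1.57, 1.51, 1.12 and 1.06, with Traf6 at 1.30 and Otulin, a deubiquitinase of linear chains, at 1.15. The lower one was Traf5 at -1.47, beside 8.18% of all genes higher and 8.50% lower. None of the 20 passed 2-fold between the genotypes at either stage. Over all genes 1.83% were higher and 1.64% lower in naive T, and 1.75% and 1.86% at 3 h. None among 20 genes is near these shares. The differences of the 20 at 3 h lay between -0.27 and 0.85 with a median of 0.17.

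**Figure D4:**
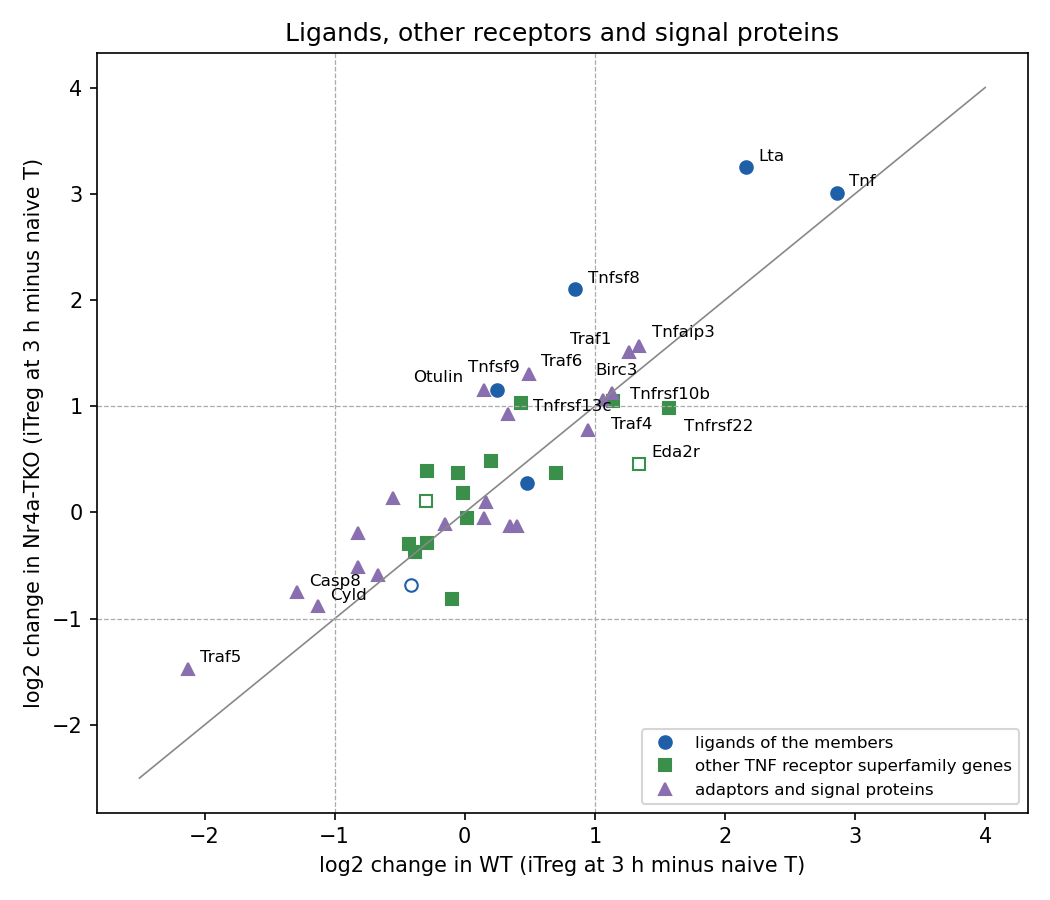
The log2 difference of iTreg at 3 h minus naive T in WT (horizontal axis) is set against that in Nr4a-TKO (vertical axis) for the ligands (blue circles), other receptors (green squares) and adaptors and signal proteins (purple triangles), with dashed lines at 2-fold and a diagonal of equal change. Genes past 2-fold in either change are named and open symbols are bounds; Tnfsf8 and Lta lie above the diagonal, at 2.10 and 3.25 in Nr4a-TKO, and Traf5 is lowest in both.

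The genes whose 4 log2 values, centred on their own mean, were nearest to those of Tnfrsf4 among 15637 genes well above background on all arrays were Bcat1, Cd69 and Crem, at Euclidean distances of 0.24, 0.27 and 0.32 log2 units. Cd69 is an early activation antigen, and Bcat1 encodes a branched-chain aminotransferase. For Tnfrsf18 they were Lonrf1, Ipo5 and Mir22hg, at 0.07, 0.16 and 0.18. For Tnfrsf9 only the brighter probe was searched, and the nearest were Olfr1507, Yif1a and Sult5a1 at 1.70, 1.80 and 1.85. No gene came as close to that probe as for the other receptors. Its log2 level in Nr4a-TKO naive T, 4.16, was near the floor of 3.37, and the other Tnfrsf9 probe read 4.62 there. Distances from the other probe were not computed. These distances rest on 4 arrays and are a description.

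Markers of other cells and states were read beside these results. All 6 CD4 T cell markers were well above background on every array, with a median Nr4a-TKO minus WT of -0.01 in naive T and -0.33 at 3 h. The activation markers were higher at 3 h by a median of 3.06 in WT and 3.12 in Nr4a-TKO. The 6 Treg markers, all of them well above background on every array, did not move together in naive T, where Nr4a-TKO minus WT gave 3 values above 0 and 3 below: Foxp3 at -1.31, Ikzf2 at -1.37, Gpr83 at 1.56, Nrp1 at 0.97, Ctla4 at 0.83 and Il2ra at -0.07.

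At 3 h Foxp3 was at -1.35, with log2 levels of 7.41 and 6.10 in WT and Nr4a-TKO naive T and of 7.52 and 6.17 in WT and Nr4a-TKO iTreg at 3 h. The other Treg markers did not follow it at 3 h. Their Nr4a-TKO minus WT was 2.27 for Gpr83, 1.05 for Nrp1, 0.16 for Ikzf2, 0.06 for Ctla4 and 0.05 for Il2ra. The log2 of the summed Treg marker levels was 10.50, 10.91, 10.32 and 10.65, which is higher in Nr4a-TKO at both stages. The 6 memory T cell markers summed to 10.93, 10.75, 10.46 and 11.32, with Cd44 at 1.55 and Cxcr3 at 1.30 for Nr4a-TKO minus WT at 3 h and S100a4 at -2.16 in naive T. The 5 B cell markers summed to 9.79, 10.17, 9.11 and 9.78. None of these lists had a marker absent from all arrays, and their part in the Tnfrsf9 and Cd27 differences was not tested.

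Promoter windows of RefSeq on GRCm38.p6, which run from 250 bases before to 50 bases after a start, were found for 9 of the 10 members, 11 windows in all. The letters AAAGGTCA, an element that Nr4a factors bind as monomers, were searched on both strands and occurred in 0 of the 11, beside 1.51% of 32851 windows of all genes. AGGAAG, a core of Ets elements, occurred in 5 of 11, beside 35.4%. GGNNTTTCC, an NF-κB element without its first base, occurred in 2 of 11, beside 5.82%: in 1 window of Tnfrsf25, and in the downstream window of Tnfrsf9. The bases before both Tnfrsf9 starts are shown since this gene differed most between the genotypes, with the match in capitals.
Tnfrsf9, upstream start, GRCm38.p6 chr4:150919905-150920154, plus strand: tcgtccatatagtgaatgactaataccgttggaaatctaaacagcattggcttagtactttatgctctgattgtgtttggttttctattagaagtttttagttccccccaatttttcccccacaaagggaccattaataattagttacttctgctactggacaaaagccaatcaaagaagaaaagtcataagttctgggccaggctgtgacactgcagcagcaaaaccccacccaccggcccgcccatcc
Tnfrsf9, downstream start, GRCm38.p6 chr4:150927749-150927998, plus strand: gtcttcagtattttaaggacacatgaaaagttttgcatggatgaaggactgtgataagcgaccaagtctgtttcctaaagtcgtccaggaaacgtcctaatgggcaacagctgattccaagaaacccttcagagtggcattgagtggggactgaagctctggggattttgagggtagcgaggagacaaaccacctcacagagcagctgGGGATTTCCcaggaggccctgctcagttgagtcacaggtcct
The match GGGATTTCC begins at position -42 relative to the downstream start. The upstream window also holds an Ets match that runs across the start and is not in the bases printed. A match is only an agreement of letters, and its absence says nothing of sites outside these windows.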

How the data were processed

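RNA of the 4 samples was labelled with Cy3 and hybridised to single-colour Agilent mouse arrays. The authors deposited the scanner output (Agilent Feature Extraction 11.5.1.1, per the file headers) with the mean intensity and local background of each spot, a background-subtracted processed intensity with its error, and flags. They also deposited log2 values as a table, found here to be the log2 processed intensity minus the 75th percentile of its array, whereas the methods name RMA. The columns had medians of -2.16, -2.17, -2.33 and -2.29, and scale and centring are settled by this match.

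Values here follow RMA, computed in R 4.3.3 by limma 3.58.1 on files read through data.table, version 1.17.8: normexp on the mean intensity, given the local background (offset 0), then quantile normalization over the 4 arrays, log2, and the mean over spots, leaving out controls and between 115 and 160 spots flagged as outliers per array. Python 3.11.15 (pandas 2.3.3, numpy 2.4.6, matplotlib 3.10.9) did the rest. Probes that were dimmer than the scanner's limit for well above background had a value below their array's floor raised to that floor. The floors were log2 3.45 and 3.37 for naive T of WT and Nr4a-TKO, and 3.43 and 3.07 for their iTreg cells. Such probes were compared where at least 1 of 2 arrays was above background. The threshold was 2-fold. Spot error is the scanner's error of the processed intensity, combined over 2 arrays on the log2 scale. Counting was tested on simulated data. Probe positions are on mm9, and names, gene positions and promoters come from RefSeq on GRCm38.p6. Probes were named through their transcript or symbol there, or kept the file's name.

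Named were all probes of the members, the list genes past 2-fold in at least 1 comparison, the 3 genes nearest in pattern to each of Tnfrsf4, Tnfrsf9 and Tnfrsf18, and the targeted genes. Marker lists for CD4, naive, activated, Treg, memory and CD8 T cells and for B, myeloid, NK and erythroid cells were read. Members and lists were chosen with earlier results of these data known. Arrays at 24 h and sequencing data were not used here.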

Additional observations from a re-analysis of the deposited data

Results flagged for a closer look

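In 4 member probes an effect had opposite signs in the 2 genotypes or at the 2 stages, and the Nr4a-TKO change minus the WT change was larger than 2 spot errors. With 1 array per group these differences were not tested. Cd27 had a log2 change from naive T of 0.67 in WT and -0.37 in Nr4a-TKO. For Nr4a-TKO minus WT, Tnfrsf26 gave -0.15 in naive T and 0.84 at 3 h, probe A_52_P192426 of Tnfrsf1a gave -1.02 and 0.16, and probe A_52_P228621 of Tnfrsf1b gave -0.52 and 0.09. The other Tnfrsf1a probe had -0.09 and -0.38, and the other Tnfrsf1b probe -0.04 and -0.05. Of the 8 values that make up these opposite effects, -0.37, -0.15, 0.16 and 0.09 lie within 2 spot errors of 0.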

How the results depend on the processing

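Of the 60 member differences, 19 were past 2-fold. All 19 kept their sign under the 7 other ways of processing and 12 stayed past 2-fold under each. Over the 15 member probes, the count lower in WT iTreg at 3 h, set against WT naive T, was 2 and became 0 with a normexp offset of 50, 1 with no background correction, 1 with median scaling and 0 at 3-fold; the count lower in Nr4a-TKO naive T was 2 and became 0, 1, 1 and 1 in the same settings. The count higher in Nr4a-TKO at 3 h went from 0 to 3 at 1.5-fold. For the 3 gene lists together, the count higher in WT iTreg at 3 h was 9 and became 2 at 3-fold, and the count lower was 3, becoming 6 at 1.5-fold and 1 at 3-fold. For the Nr4a-TKO change, 12 higher became 3 at 3-fold, and 1 lower became 2 with scaling to the 75th percentile, 2 with the deposited table, 6 at 1.5-fold and 0 at 3-fold. In naive T, 1 higher (Tnfrsf14) became 0 with scaling to the 75th percentile, the offset of 50, no background correction, median scaling, the deposited table, 3-fold and the mean of all probes, and 0 lower became 1 at 1.5-fold. At 3 h, 5 higher became 2 with the offset of 50, 3 with no background correction and 1 at 3-fold, and 0 lower became 1 with scaling to the 75th percentile, with the deposited table and at 1.5-fold. The offset shrinks dim values by its construction; otherwise the cause was not tested. Of the list genes past 2-fold, 1 changed sign: Eda2r in WT, -0.42 with the mean of all probes. Dropping the filter on dim probes, or asking for both arrays above background, moved no member value.

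No paired analysis was possible because each group has 1 array and the labels give no shared replicate numbers, and no array could be left out for the same reason. Signals near the floor limit Tnfrsf8, Tnfrsf1a, 1 Fas probe and Tnfrsf9 in naive T: probes under a log2 level of 6 had a median repeat-spot SD of 0.24, against 0.12 above it.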

Other observations

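The lists of other cells that the report does not describe gave these values of Nr4a-TKO minus WT, as medians on the log2 scale. The naive T cell markers were at 0.16 in naive T and -0.21 at 3 h, and their median change with culture was -1.80 in WT and -2.07 in Nr4a-TKO. The B cell markers were at 0.48 in naive T and 0.77 at 3 h, the CD8 T cell markers at -0.13 and -0.45, the myeloid markers at 0.08 and 0.00 (with Cd14 at -2.69 in naive T), the NK cell markers at -0.12 and -0.03, and the erythroid markers at 0.03 and 0.55. Of the 5 myeloid markers 3 were well above background on all arrays, of the 3 NK cell markers 1 was, and of the 3 erythroid markers 2 were.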
